A study of Mus musculus with 38 samples.

Results

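Phosphate transport and phosphate release were followed through 10 genes, out of 21441 measured in each table, in the intestine of mice given the hormonal form of vitamin D. The genes were taken by symbol and comprise the sodium phosphate cotransporters Slc34a1, Slc34a2, Slc34a3, Slc20a1 and Slc20a2, the phosphate exporter Xpr1, the ectoenzyme Enpp1, and the alkaline phosphatases Akp3, Alpi and Alpl. RNA-seq was made from wild-type C57BL6/J mice, all of them vitamin D deficient, so the controls were deficient too. Tissue was taken 4 h after an intraperitoneal injection of 1,25(OH)2D3 (10 ng per g body weight) or of 0.1 ml of vehicle, a mixture of propylene glycol with ethanol. Villi gave 7 vitamin D and 6 vehicle libraries, crypts 6 of each, and colon 7 vitamin D and 6 vehicle libraries. The labels give the age as 12 to 14 weeks in one field and as 10 to 13.3 weeks in another. Villi and crypts came from the proximal 10 to 15 cm of the small intestine, loosened with EDTA and parted on a 70 µm filter, and colon epithelium was scraped from the muscle. How many mice went into 1 library is not known from the labels, so p-values here measure only the spread between these samples, which may be technical.

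Phosphate enters the enterocyte across its brush border with sodium, chiefly through Slc34a2 (NaPi-IIb), and it can also pass between cells. Slc34a1 and Slc34a3 are the corresponding carriers of the kidney, Slc20a1 and Slc20a2 (PiT-1 and PiT-2) are carried by most cells, and Xpr1 lets phosphate out of cells. Alkaline phosphatases on the cell surface free phosphate from organic esters. Alpi and Akp3 are the intestinal ones of the mouse, Alpl is the form of bone, liver and kidney, and Enpp1 makes pyrophosphate, which Alpl is known to split. 1,25(OH)2D3 acts through the vitamin D receptor, and intestinal uptake of phosphate is among the processes known to respond to it.

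Values are FPKM, fragments scaled by transcript length and library size, and the libraries held 13.8 to 17.5 M reads, recovered from the steps between low values. Cyp24a1, the hydroxylase that inactivates 1,25(OH)2D3, averaged 3378 ± 877 FPKM in vitamin D villi and 10.98 ± 25.1 FPKM in vehicle villi (SD, n = 7 and 6), and its level was above every vehicle library in all vitamin D libraries of the tissue. The vehicle mean rests on replicate 6 at 62.2 FPKM, the other controls being at 0.0548 to 1.33 FPKM, and vehicle replicate 6 of colon stood likewise at 64.7 FPKM, against at most 5.38 FPKM in the others. Vdr, the receptor itself, did not pass the test in any tissue (limma, adjusted p = 0.675 in villi, 0.381 in crypts and 0.909 in colon). The 20 absorptive enterocyte markers summed to 44015 to 69751 FPKM per library in villi, 7779 to 57921 in crypts and 1250.3 to 4840 in colon. The 11 colon epithelium markers summed to 10206 to 23847 FPKM in colon, 329 to 562 in villi and 324 to 717 in crypts. The labels call the animals pooled males and females. A library was given the male pattern where Ddx3y was above Xist and the female pattern otherwise, which gave 14 libraries of the male and 24 of the female pattern. A pooled library would be given a pattern by this rule too, so the pattern does not show that a library came from a single sex. In colon, vitamin D replicates 6 and 7 and vehicle replicates 5 and 6 held more of the small-intestinal transcripts, with Fabp1 at 181 to 724 FPKM in these 4 libraries. Colon vitamin D replicates 1 and 2 held muscle transcripts, with Des, the muscle intermediate filament desmin, at 299 and 1381 FPKM.

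With limma on log2(FPKM + 0.5), none of the members reached an adjusted p under 0.05 in any tissue, among 7 that passed the filter on low values in villi, 6 in crypts and 7 in colon. The filter asked that 6 or more libraries of a tissue reach 1 FPKM. At an unadjusted p under 0.05 there were 4 members in villi (Slc34a2, Slc20a1, Enpp1 and Alpi), 1 in crypts (Slc20a1) and 1 in colon (Slc34a2). The same threshold was passed by 1181 of 9706 genes tested in villi, 1639 of 10733 in crypts and 929 of 11540 in colon. Over all genes tested, 2.47% were called in villi, 1.46% in crypts and 0.823% in colon. The authors' deposited table had 1 member with an adjusted p under 0.05 in villi (Alpi) and 1 in crypts (Slc34a2), against 3.6% and 4.28% of the genes with an adjusted p there. The authors' deposited table for colon called none, against 1.64% of its genes. Fold changes below are vitamin D over vehicle on the log2(FPKM + 0.5) scale with their standard error, a scale that understates the change of low genes.

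**Figure D1:**
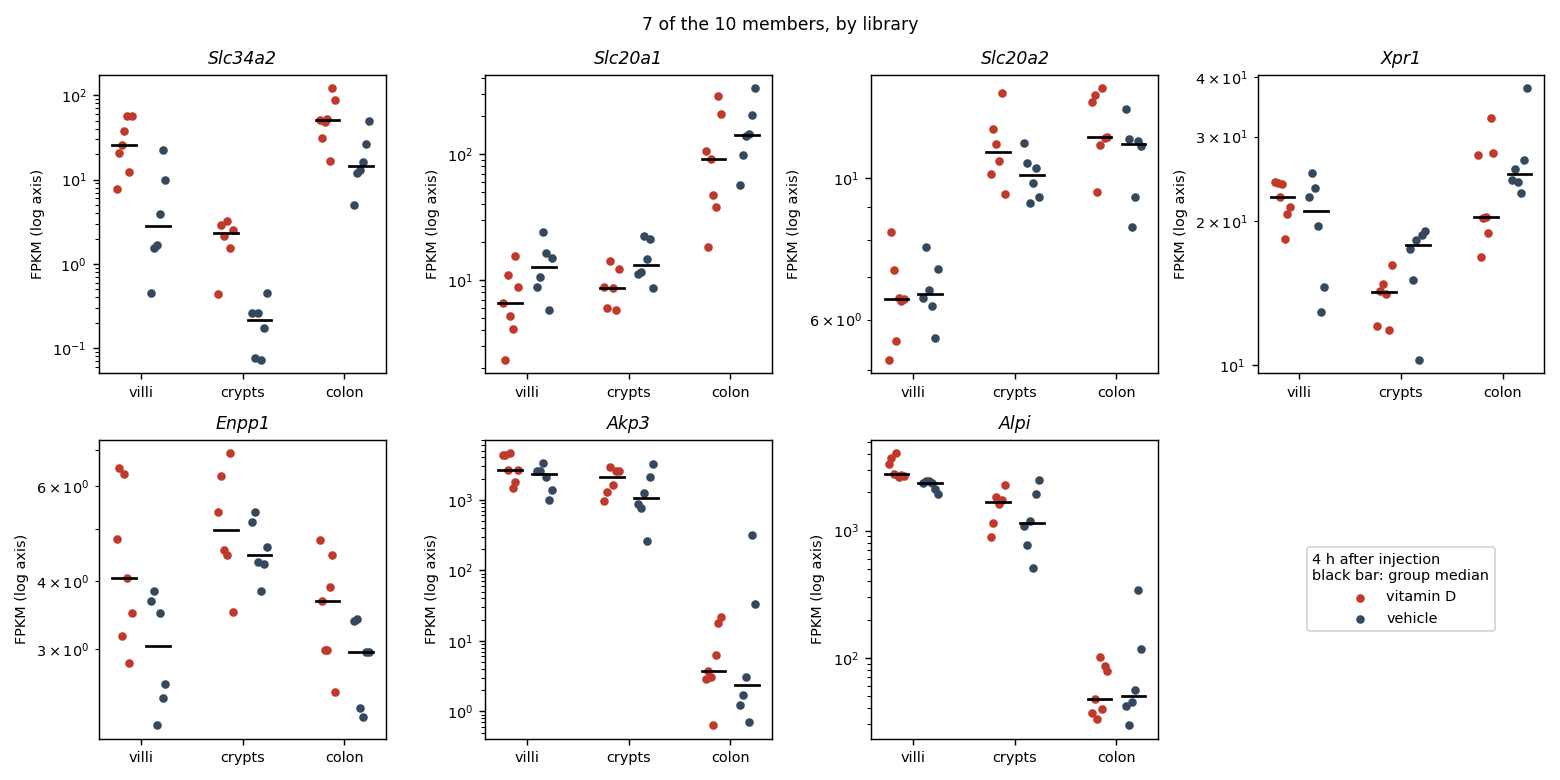
FPKM on log axes of 7 members in each library, with vitamin D libraries left of vehicle libraries in villi, crypts and colon, and a bar at each group median. Slc34a2 is higher at the median with vitamin D in each tissue, Slc20a1 is highest in colon, and Alpi and Akp3 stand between 258 and 4555 FPKM in villi and crypts, against 0.636 to 339 FPKM in colon.

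Slc34a2, the brush border carrier, was the member with the largest log2 fold change on the log2(FPKM + 0.5) scale in each tissue. In villi it had 7.71, 25.8 and 57.3 FPKM as lowest, median and highest value of the vitamin D libraries, against 0.447, 2.78 and 22.2 FPKM in vehicle libraries. Of the 7 vitamin D libraries 4 lay above every vehicle library, and the groups overlapped through vehicle replicates 5 and 6, the second being the control with Cyp24a1 at 62.2 FPKM. The group means were 31.3 ± 20.2 FPKM in vitamin D villi and 6.63 ± 8.38 FPKM in vehicle villi (SD), with a log2 fold change of 2.67 ± 0.69 (limma, unadjusted p = 0.00161, adjusted p = 0.0611). The replicate numbers of the titles were taken to pair the samples in villi, where same-numbered deviations from the group means correlated at 0.102 to 0.465. The same-numbered vitamin D library correlated best with vehicle replicates 2, 4 and 6, but not with vehicle replicates 1, 3 and 5. Pair 6 joins a control of the male pattern to a vitamin D library of the female pattern, so the pairing is not certain. With these numbers as a replicate block vitamin D replicate 7 contributes nothing for want of a partner, and Slc34a2 passed the test at 2.48 ± 0.43 (limma, adjusted p = 0.0228). It also passed without vehicle replicate 5 (adjusted p = 0.0148) and without vitamin D replicate 1 (adjusted p = 0.0453), and leaving out other single libraries gave adjusted p-values of up to 0.126.

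In crypts Slc34a2 was scarce. It had 0.436, 2.33 and 3.23 FPKM as lowest, median and highest value with vitamin D, against 0.0727, 0.215 and 0.449 FPKM with vehicle. These values rest on 30 to 207 recovered reads per vitamin D library and on 5 to 25 per vehicle library. In all but 1 of the 6 vitamin D libraries, replicate 1 at 0.436 FPKM, the level was above every vehicle library. The gene missed the filter with 5 libraries at 1 FPKM or more, and in the fit without the filter it passed the test with a log2 fold change of 1.77 ± 0.30 (limma, adjusted p = 0.0131), in which 0.924% of all genes were called. The authors' deposited table gave 3.31 ± 0.50 with an adjusted p of 7.6e-09.

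In colon Slc34a2 had 16.7, 51.6 and 121.6 FPKM as lowest, median and highest value with vitamin D, against 4.97, 14.7 and 49.98 FPKM with vehicle. Vitamin D replicate 5 was the lowest of its group, and 4 of the 7 vitamin D libraries lay above vehicle replicate 6, the highest control. The means were 58.4 ± 35.4 and 20.5 ± 16.1 FPKM, with a log2 fold change of 1.59 ± 0.50 (limma, unadjusted p = 0.00667, adjusted p = 0.269). The authors' deposited table gave 1.51 ± 0.48 with an adjusted p of 0.0781. Without the 4 libraries that held small-intestinal transcripts, 2 of each treatment, a removal chosen after the data were seen, the log2 fold change was 1.74 ± 0.40 (limma, adjusted p = 0.0938). The 2 vitamin D libraries that held muscle transcripts stood at 51.6 FPKM, the median of their group, and at 31.2 FPKM, the second lowest, and the part of those transcripts was not tested.

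**Figure D2:**
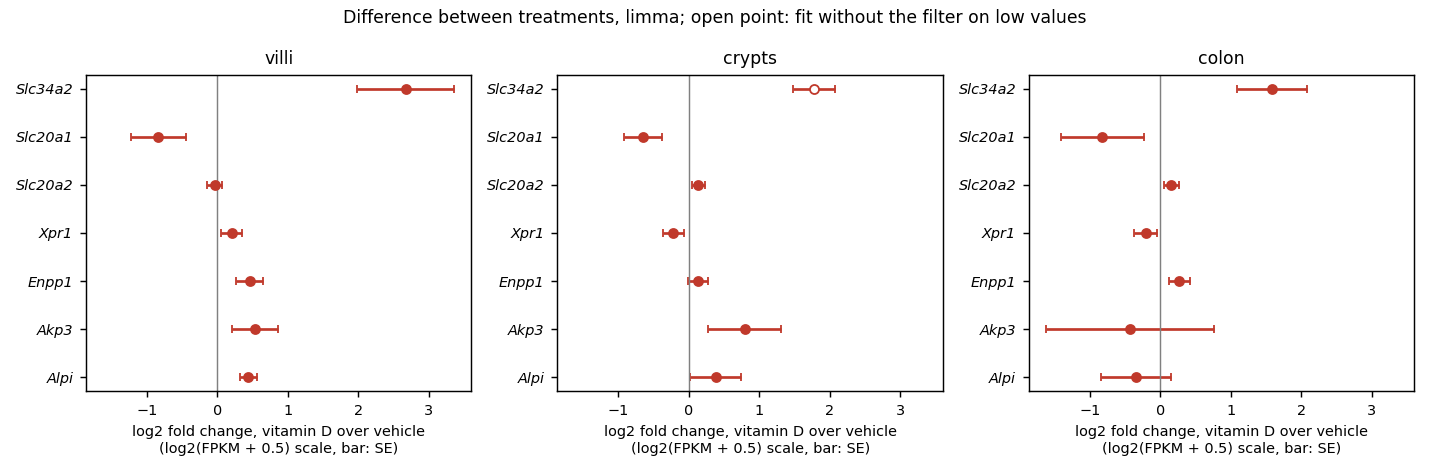
Log2 fold change of vitamin D over vehicle with its standard error for 7 members in villi, crypts and colon, on log2(FPKM + 0.5). Slc34a2 lies furthest to the right in each tissue (2.67, 1.77 and 1.59; the open point in crypts is from the fit without the filter), and Slc20a1 lies left of 0 in each (-0.84, -0.65 and -0.82).

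Within a treatment, the spread of Slc34a2 followed the sex pattern of the library. In vitamin D villi the 3 libraries of the male pattern had 37.8 to 57.3 FPKM and the 4 of the female pattern 7.71 to 25.8 FPKM. Vehicle villi had 3.89 to 22.2 FPKM in the 3 libraries of the male pattern and 0.447 to 1.68 FPKM in the 3 of the female pattern. The patterns did not overlap within either treatment, and within each pattern every vitamin D library was above every vehicle library. The share of all genes divided in this way was not counted. In vitamin D villi Car1, a colon epithelium marker, had 7.66 to 51.6 FPKM (male pattern) and 0 to 5.92 FPKM (female pattern). In vehicle villi it had 16.0 to 75.9 FPKM and 1.02 to 3.42 FPKM in the same order. Slc10a2, a distal small intestine gene, overlapped between the patterns in each treatment. The part of tissue makeup in the spread of Slc34a2 was not tested.

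In colon Slc34a2 kept the same order of patterns and treatments. The labels do not say whether villi and colon came from the same mice. Numbers that open some column names follow on from villi to colon, so the tissues may not be independent. With vitamin D the 3 colon libraries of the male pattern had 52.2 to 121.6 FPKM of Slc34a2 and the 4 of the female pattern 16.7 to 51.6 FPKM. With vehicle they had 16.2 to 49.98 FPKM (male pattern, n = 3) and 4.97 to 13.1 FPKM (female pattern, n = 3). Here again the vitamin D libraries of a pattern were all above its vehicle libraries. With vitamin D the patterns were barely apart, at 52.2 and 51.6 FPKM, and the share of all genes divided in this way was not counted. In crypts only 1 library of each treatment had the male pattern, with 3.23 FPKM in the vitamin D and 0.0727 FPKM in the vehicle library, so that crypts give no such comparison.

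A fit with treatment and sex pattern, chosen after these values were seen, put Slc34a2 higher in the male pattern by 2.14 ± 0.39 in villi (limma, adjusted p = 0.0299) and by 1.40 ± 0.34 in colon (adjusted p = 0.0408). In these fits 0.865% of the genes of villi and 4.51% of those of colon were called by sex pattern. The call was lost in villi without vehicle replicate 1, 2, 3 or 5 or vitamin D replicate 1, 4, 6 or 7. In colon it was lost without vehicle replicate 1, 2, 5 or 6 or vitamin D replicate 2, 5, 6 or 7. With 1 library left out the adjusted p-values ran from 0.0262 to 0.082 in villi and from 0.025 to 0.101 in colon, and the difference kept its sign. The treatment effect of Slc34a2 in the same fit was 2.83 ± 0.39 in villi (adjusted p = 0.00116) and 1.69 ± 0.34 in colon (adjusted p = 0.0304). No difference of the vitamin D effect between the patterns was called (male minus female pattern -0.96 ± 0.77 in villi, adjusted p = 0.588, and -0.27 ± 0.71 in colon, adjusted p = 1.00).

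The 8 libraries whose column names begin with a number are all of the male pattern, and the 6 with a hyphen are all of the female pattern, so the pattern and the style of the name move together. Among plainly named libraries only replicate 4 of each group has the male pattern, and in these 8 libraries the difference was 1.32 ± 0.47 in villi (limma, adjusted p = 0.174) and 0.53 ± 0.36 in colon (adjusted p = 0.661). In the same plainly named libraries vitamin D over vehicle was 3.31 ± 0.55 in villi (adjusted p = 0.0319) and 2.02 ± 0.33 in colon (adjusted p = 0.0369), so Slc34a2 rose with the hormone there. With the name style as a covariate the values were 2.84 ± 0.45 (adjusted p = 0.00439) and 1.84 ± 0.27 (adjusted p = 0.00549), in fits to which the single hyphened library of each tissue contributes nothing. In colon the number-prefixed libraries are also those that held small-intestinal transcripts.

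**Figure D3:**
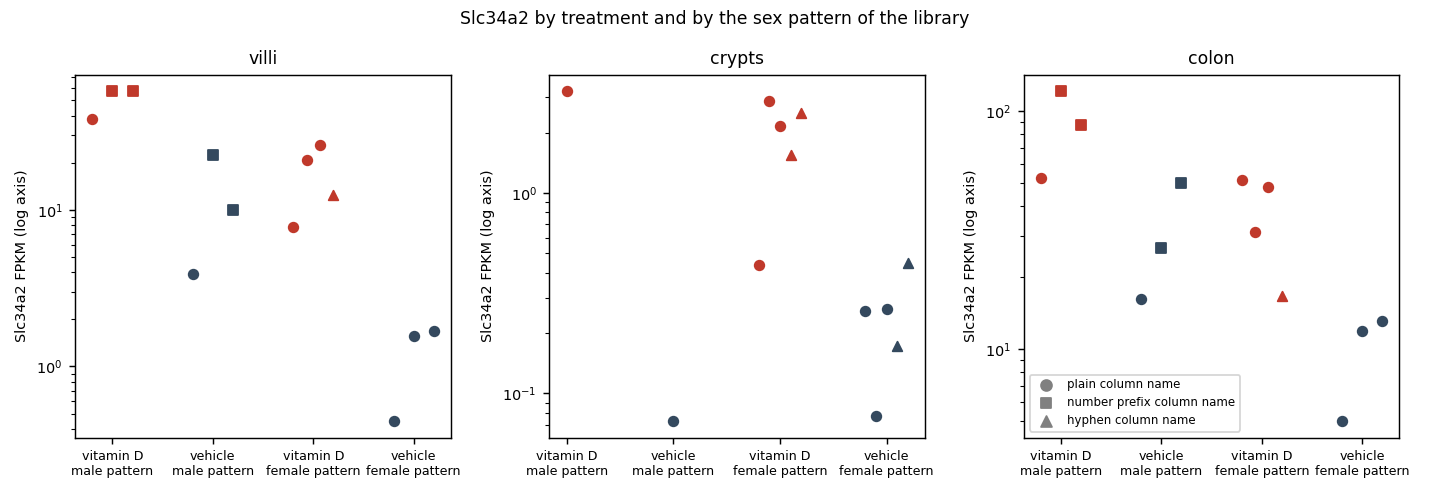
FPKM of Slc34a2 on log axes, by treatment and by the sex pattern of the library, with the symbol giving the style of the column name. In villi and colon each male-pattern group lies above the female-pattern group of the same treatment, and each vitamin D group lies above the vehicle group of the same pattern (7.71 to 25.8 against 0.447 to 1.68 FPKM for the female pattern in villi).

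The genes whose log2 values followed Slc34a2 most closely, after the mean of each treatment was removed, were Rce1, Slc5a8 and Gdpd1 in villi (Pearson r of 0.95, 0.93 and 0.93 over 13 libraries). In colon they were Crot, Klf6 and Xk (0.97, 0.96 and 0.95 over 13 libraries). Among the members, Xpr1 ran opposite to Slc34a2 in villi (r = -0.81), while Slc20a1 and Xpr1 ran with it in colon (r = 0.86 and 0.78). These correlations are descriptions, and the libraries share sex pattern, name style and tissue makeup. The promoter of Slc34a2, from 250 bases before its start to 50 after, lies at chr5:53049103-53049402 on the plus strand (RefSeq, GRCm38.p6), and is shown because the gene had the largest log2 fold change. The capitals mark TATATATA, present on either strand in 0.819% of 32851 promoters of this length.

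Slc34a2: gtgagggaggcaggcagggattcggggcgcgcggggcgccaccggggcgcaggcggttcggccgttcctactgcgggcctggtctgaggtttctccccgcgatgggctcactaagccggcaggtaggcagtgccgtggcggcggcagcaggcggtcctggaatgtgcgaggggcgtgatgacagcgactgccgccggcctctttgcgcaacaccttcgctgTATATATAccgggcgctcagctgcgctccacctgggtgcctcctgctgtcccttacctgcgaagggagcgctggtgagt

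This window and those of the other members in the table (9 of 10, all but Slc20a2) held, on either strand, no DR3 motif, the direct repeat with a spacer of 3 bases that the vitamin D receptor is known to bind. Of all promoters 0.0396% hold a DR3. The search covers only these letters in this window.

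The kidney carriers were at or near the floor. Slc34a1 averaged 0.0799 ± 0.0509 FPKM in vitamin D villi and 0.112 ± 0.0538 FPKM in vehicle villi, and 0.348 ± 0.113 and 0.232 ± 0.0973 FPKM in colon. Its libraries held 2 to 21 recovered reads. Slc34a3 had at most 10 reads in any library and was listed at 0 in some libraries of each tissue, and Alpl had at most 21. None of these 3 genes passed the filter. In the fit without it none was called, and the smallest p was that of Slc34a1 in colon, where 4 of 7 vitamin D libraries lay above every control (0.21 ± 0.11; limma, unadjusted p = 0.0745, adjusted p = 0.829).

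Slc20a1, the PiT-1 carrier, had lower means with vitamin D in all 3 tissues without passing the test there. In villi its lowest, median and highest values were 2.33, 6.56 and 15.6 FPKM with vitamin D, against 5.79, 12.8 and 24.2 FPKM with vehicle. The groups overlapped, with 3 vitamin D libraries below every vehicle library, and the log2 fold change was -0.84 ± 0.39 (limma, unadjusted p = 0.0493, adjusted p = 0.407). The replicate block by titles gave an adjusted p of 0.12, and a block by the numbers of the column names gave -1.04 ± 0.21 with an adjusted p of 0.0404 (limma). In crypts the values were 5.78, 8.74 and 14.2 FPKM with vitamin D, against 8.67, 13.2 and 22.4 FPKM with vehicle. Here too 3 vitamin D libraries lay below all controls, at -0.65 ± 0.27 (unadjusted p = 0.0293, adjusted p = 0.267).

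Colon held by far the most Slc20a1. Its values were 18.4, 91.6 and 292.0 FPKM in vitamin D colon, against 57.1, 142.9 and 335.2 FPKM in vehicle colon. The groups overlapped, with 3 vitamin D libraries below every control, and the log2 fold change was -0.82 ± 0.59 (limma, adjusted p = 0.839). The lowest of the vitamin D libraries was replicate 2, one of those that held muscle transcripts. Its 4 highest libraries, vitamin D replicates 6 and 7 and vehicle replicates 6 and 5, were those with small-intestinal transcripts, all number-prefixed and of the male pattern. In the fit with treatment, male over female pattern was 1.35 ± 0.48 (limma, unadjusted p = 0.0148, adjusted p = 0.102), and the part of tissue makeup was not tested. The genes most like Slc20a1 across the villus libraries were Sh3rf2, Trim32 and Pld1 (Pearson r of 0.95, 0.95 and 0.94 over 13 libraries).

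Slc20a2, the PiT-2 carrier, averaged 6.51 ± 1.01 FPKM in vitamin D villi and 6.68 ± 0.758 FPKM in vehicle villi, with a log2 fold change of -0.04 ± 0.11 (limma, adjusted p = 0.922). The crypt means were 11.2 ± 1.46 and 10.1 ± 0.823 FPKM (0.13 ± 0.09, adjusted p = 0.524). In colon it averaged 12.1 ± 1.52 with vitamin D and 10.8 ± 1.63 FPKM with vehicle (0.16 ± 0.11, adjusted p = 0.839). The groups overlapped in each tissue.

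Xpr1, the exporter, averaged 22.1 ± 2.14 FPKM in vitamin D villi and 19.7 ± 4.98 FPKM in vehicle villi, with a log2 fold change of 0.20 ± 0.15 (limma, adjusted p = 0.66). The 2 lowest controls were the number-prefixed replicates 5 and 6, at 12.9 and 14.5 FPKM. In crypts it had 11.8, 14.2 and 16.2 FPKM with vitamin D, against 10.2, 17.8 and 19.1 FPKM with vehicle. The lowest of all crypt libraries was vehicle replicate 4, and without it Xpr1 fell with vitamin D by 0.34 on the log2 scale (adjusted p = 0.0425), against -0.22 ± 0.14 (adjusted p = 0.503) with all libraries. That control had the lowest mean of the 20 enterocyte markers among the 12 crypt libraries, and without it 1059 genes were called in all, against 157 with it. In colon Xpr1 averaged 23.5 ± 5.86 FPKM with vitamin D and 26.9 ± 5.53 FPKM with vehicle (-0.21 ± 0.16, adjusted p = 0.849).

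Enpp1, the pyrophosphate-making ectoenzyme, was low throughout. In villi it had 2.82, 4.05 and 6.46 FPKM as lowest, median and highest value with vitamin D, against 2.17, 3.04 and 3.84 FPKM with vehicle. Of the vitamin D libraries 4 were above every control, and the log2 fold change was 0.46 ± 0.19 (limma, unadjusted p = 0.0342, adjusted p = 0.342). With the replicate block by titles the adjusted p was 0.0529, and with the block by column-name numbers the gene passed at 0.54 ± 0.10 (limma, adjusted p = 0.0255). The means were 5.17 ± 1.25 and 4.60 ± 0.571 FPKM in crypts (0.13 ± 0.14, adjusted p = 0.701). In colon they were 3.61 ± 0.838 FPKM with vitamin D and 2.88 ± 0.498 FPKM with vehicle (0.27 ± 0.15, adjusted p = 0.748). Across villus libraries Enpp1 ran most closely with Clptm1, Lrp10 and B4galnt2 (Pearson r of 0.95, 0.93 and 0.93 over 13 libraries), and among the members with Alpi (r = 0.77).

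Alpi, one of the intestinal alkaline phosphatases, was among the abundant transcripts of villi. It had 2641, 2797 and 4053 FPKM as lowest, median and highest value with vitamin D, against 1949, 2361 and 2480.3 FPKM with vehicle. All 7 vitamin D libraries were above all 6 controls, and the share of all genes in villi with groups apart was not counted. The means were 3139 ± 575 and 2293 ± 206 FPKM, and the log2 fold change was 0.44 ± 0.12 (limma, unadjusted p = 0.00316, adjusted p = 0.0926). With the replicate block it passed the test at 0.47 ± 0.10 (limma, adjusted p = 0.0415), but not with the block by column-name numbers (adjusted p = 0.0508). The authors' deposited table called it at 0.45 ± 0.12 and an adjusted p of 0.0079. The summed FPKM of the 20 enterocyte markers ranged from 50238 to 69751 in vitamin D villi and from 44015 to 67783 in vehicle villi.

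Akp3, the second intestinal alkaline phosphatase, was as abundant in villi but varied more. It had 1481, 2683 and 4555 FPKM as lowest, median and highest value with vitamin D, against 987, 2333 and 3304 FPKM with vehicle. The groups overlapped, and the log2 fold change was 0.54 ± 0.33 (limma, adjusted p = 0.58). After removal of the treatment means, Akp3 and Alpi ran together over the villus libraries (r = 0.82). The genes most like Alpi there were Bahd1, Samd4b and Sp2 (Pearson r of 0.94, 0.94 and 0.93 over 13 libraries).

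In crypts both phosphatases spread widely. Alpi had 889, 1688 and 2279 FPKM with vitamin D, against 511, 1144 and 2483 FPKM with vehicle, and its log2 fold change was 0.38 ± 0.36 (limma, adjusted p = 0.651). Akp3 had 975, 2078 and 2905 FPKM with vitamin D, against 258, 1054 and 3181 FPKM with vehicle (0.79 ± 0.52, adjusted p = 0.499). The groups overlapped fully in both genes, since vehicle libraries were both the lowest and the highest.

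The spread of the controls followed that of the enterocyte markers. Vehicle replicate 4 was lowest and vehicle replicate 6 highest in Alpi, Akp3 and the mean of the 20 markers. The markers gave negative log2 fold changes in 20 of 20 genes in crypts (median -0.52), against a median of -0.01 over all genes tested, and none of the 20 was called. Fewer cells of a type and less RNA per cell cannot be told apart in these bulk samples. Alpi and Akp3 were therefore also set against the mean log2 level of the 20 markers in the same library, a comparison chosen after the values were seen.

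On that scale the groups did not overlap in crypts. Alpi lay 1.94 ± 0.25 above the marker mean in vitamin D crypts and 1.06 ± 0.28 above it in vehicle crypts (log2, SD, n = 6 each), a difference of 0.88. Akp3 lay 2.22 ± 0.40 above it with vitamin D and 0.92 ± 0.34 above it with vehicle, a difference of 1.29. The marker mean itself was 8.62 with vitamin D and 9.13 with vehicle, so that 0.50 of each difference is the lower marker mean, and the genes' own log2 fold changes were the 0.38 and 0.79 given above. In each gene 6 of 6 vitamin D libraries were above every control, and an exact two-sided permutation test gave p = 0.00216, the smallest that free permutation of 12 libraries allows (0.00433 adjusted over the 6 tests of 3 genes in 2 tissues). A gene with no change of its own would also stand 0.50 higher with vitamin D on this scale. The share of all genes with groups apart on it was not counted, so the separation is not particular to these genes as far as is known. Slc34a2 relative to the same markers differed by 2.27 in crypts (exact permutation p = 0.00216) and by 2.60 in villi (exact permutation p = 0.0117, adjusted 0.0175). Within same-numbered pairs, where the smallest possible p is 0.0312, all 6 pairs were higher with vitamin D in crypts for Alpi, Akp3 and Slc34a2, and in villi for Slc34a2 (exact paired permutation p = 0.0312 each, adjusted 0.0469 over 6 tests). For vehicle replicates 1, 2 and 5 of crypts another vitamin D library than the same-numbered one correlated best, so these pairs too are not certain.

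In villi the same scale gave differences of 0.37 for Alpi (exact permutation p = 0.028, adjusted 0.0336) and 0.47 for Akp3 (exact permutation p = 0.213), with overlapping groups. Over the 6 pairs, 5 of them higher with vitamin D in each gene, the exact paired permutation p was 0.0625 for Alpi and 0.125 for Akp3. Leaving out any of 6 villus libraries (vitamin D replicates 1, 2 and 4, vehicle replicates 1, 2 and 6) raised the p of Alpi to between 0.0519 and 0.0606. In crypts no single library did so for Alpi or Akp3, with exact permutation p-values of 0.00216 to 0.00433 and differences of 0.82 to 0.98 for Alpi and 1.16 to 1.38 for Akp3.

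**Figure D4:**
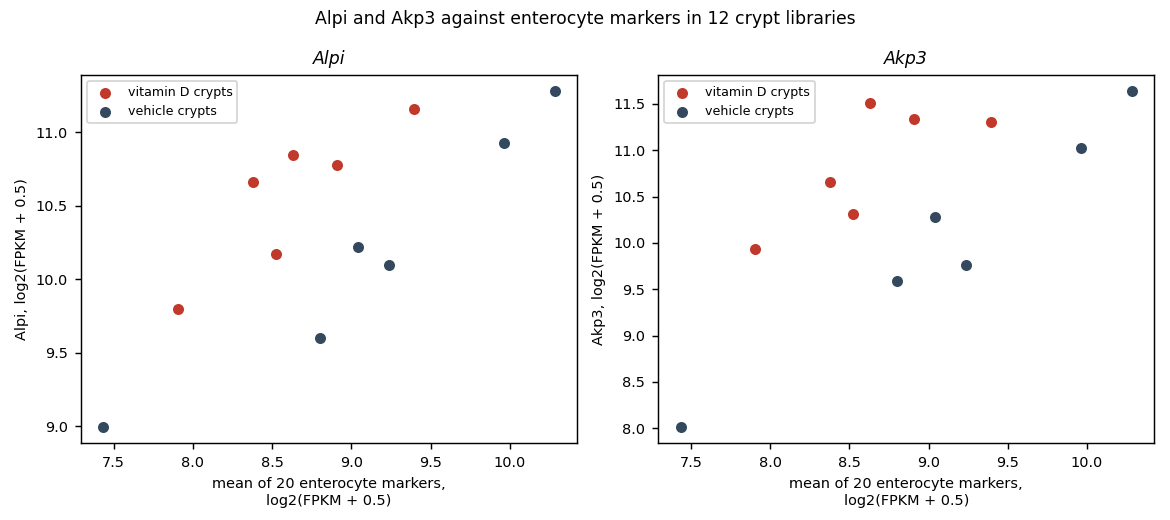
Level of Alpi and of Akp3 against the mean of 20 absorptive enterocyte markers in the 12 crypt libraries, all on log2(FPKM + 0.5). Less the marker mean of the same library, Alpi averaged 0.88 and Akp3 1.29 higher in vitamin D than in vehicle libraries. Of each difference 0.50 is the lower marker mean with vitamin D.

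Alpi and Akp3 are neighbours in the genome with Alppl2, another member of the alkaline phosphatase family, and their transcripts resemble each other. In GENCODE M21, 82.6% of the aligned bases of the Akp3 and Alpi transcripts are identical, but only 4.85% of the 31-base windows of Akp3 occur in Alpi and 3.47% of those of Alpi occur in Akp3. Counting could have split reads from the shared stretches between them, so the levels are less certain than those of single genes. The promoters of both genes, on chromosome 1 (RefSeq, GRCm38.p6), are shown because the genes share their tissue pattern. They are chr1:87101557-87101856 on the minus strand for Alpi and chr1:87124704-87125003 on the plus strand for Akp3. Capitals mark the longest run of letters the pair has in common, 14 bases, and in Alpi also a match further downstream to CAAAGTCCA, the motif known for HNF4 factors.

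Alpi: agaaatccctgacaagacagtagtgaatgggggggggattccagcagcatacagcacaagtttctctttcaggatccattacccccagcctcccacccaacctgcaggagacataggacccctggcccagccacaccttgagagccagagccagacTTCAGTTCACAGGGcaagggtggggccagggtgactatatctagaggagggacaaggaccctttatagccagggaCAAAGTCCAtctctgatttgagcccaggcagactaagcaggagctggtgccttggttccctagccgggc
Akp3: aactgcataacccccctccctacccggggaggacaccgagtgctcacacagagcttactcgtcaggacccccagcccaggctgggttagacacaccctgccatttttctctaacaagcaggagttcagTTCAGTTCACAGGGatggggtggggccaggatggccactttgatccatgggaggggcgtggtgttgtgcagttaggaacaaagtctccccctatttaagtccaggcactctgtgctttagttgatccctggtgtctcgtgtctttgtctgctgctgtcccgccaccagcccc

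The shared run starts 94 bases before the start site in Alpi and 122 before it in Akp3. Among 32851 promoters it occurs, on either strand, in 2, those of Alpi and Akp3. Its first 13 letters also stand in Alppl2 and in 10 promoters in all (0.0304%). The HNF4 motif starts 19 bases before the start site of Alpi, is absent from the windows of the other members on either strand, and is held by 0.475% of all promoters. These matches are descriptions of letters and say nothing of binding.

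In colon the phosphatases were low, and their highest values fell in the libraries with small-intestinal transcripts. Akp3 had 0.636, 3.73 and 21.98 FPKM as lowest, median and highest value with vitamin D, against 0.701, 2.39 and 315.1 FPKM with vehicle. Its 4 highest libraries, vitamin D replicates 7 and 6 at 21.98 and 17.7 FPKM and vehicle replicates 5 and 6 at 315.1 and 33.0 FPKM, were also the 4 highest in Fabp1 and in Apoa1, both enterocyte lipid genes. The log2 fold change was -0.43 ± 1.19 (limma, adjusted p = 0.96). In the authors' deposited table it was -2.88 ± 1.23 (unadjusted p = 0.0192, adjusted p = 0.302). Without these 4 libraries it was 0.71 ± 0.48 (limma, adjusted p = 0.634), and the sign was not the same in these fits, none of which called the gene. Alpi had 33.0, 47.1 and 101.0 FPKM in vitamin D colon, against 29.5, 50.1 and 338.5 FPKM in vehicle colon (-0.35 ± 0.49, adjusted p = 0.911). It was also high in vitamin D replicate 4, at 101.0 FPKM, where Fabp1 was at 3.54 FPKM.

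Alpi was higher in colon libraries of the male pattern by 1.45 ± 0.32 (limma, adjusted p = 0.0301), in a fit with treatment. That pattern is shared by the libraries with small-intestinal transcripts, and their part in the difference was not tested. Among the plainly named libraries, replicate 4, the only one of the male pattern, was the highest in Alpi within each treatment, at 101.0 FPKM with vitamin D and 55.4 FPKM with vehicle. Its Akp3 was the lowest of each group, at 0.636 and 0.701 FPKM.

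**Figure D5:**
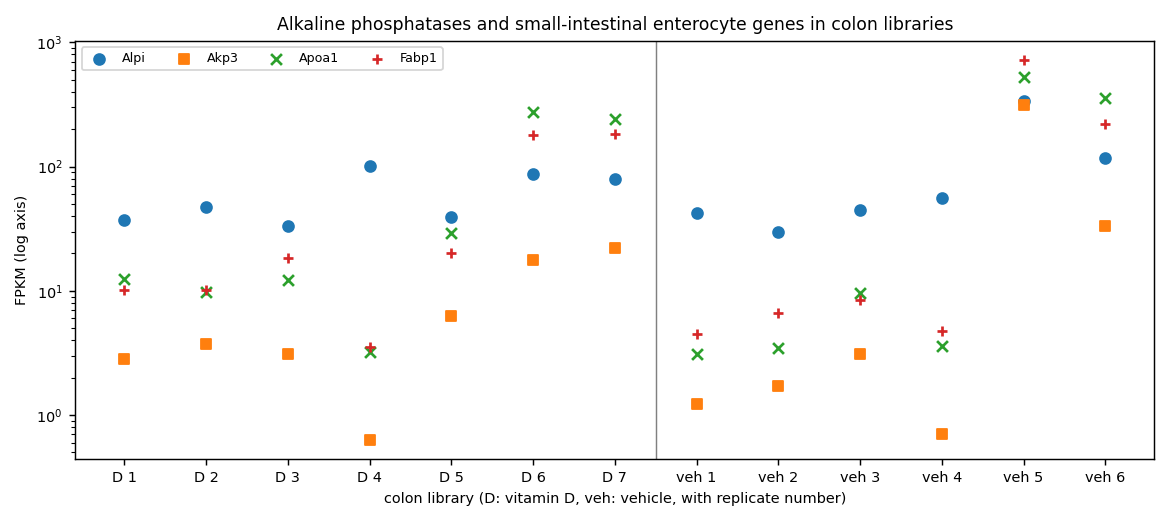
FPKM on a log axis of Alpi, Akp3, Apoa1 and Fabp1 in the 7 vitamin D and 6 vehicle colon libraries. Akp3 is highest where Fabp1 and Apoa1 are highest (vitamin D replicates 6 and 7, vehicle replicates 5 and 6), whereas Alpi is also at 101.0 FPKM in vitamin D replicate 4, where Fabp1 is at 3.54 FPKM.

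The members divided the tissues differently. The FPKM tables of the tissues were normalised separately, so the tests of tissue come from the authors' deposited tables on vitamin D treated libraries, in which 61.9% of genes differed between crypts and villi, 64.7% between colon and villi and 56.5% between colon and crypts. Slc34a2 was lower in crypts than in villi by 4.37 ± 0.47 on the authors' log2 scale (authors' deposited table, adjusted p = 4.5e-20), and it did not differ by their test between colon and villi (0.20 ± 0.45, adjusted p = 0.709). Slc20a1 was higher in colon than in villi by 3.21 ± 0.52 and than in crypts by 3.55 ± 0.50 in the authors' deposited tables (adjusted p = 2.5e-09 and 1.2e-11), while crypts and villi did not differ by their test (adjusted p = 0.657).

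Xpr1 stood in the order villi, colon, crypts in the authors' deposited tables, with crypts below villi by -1.16 ± 0.10, colon below villi by -0.61 ± 0.15 and colon above crypts by 0.68 ± 0.16. All 3 differences passed (largest adjusted p = 6.0e-05). Mean FPKM of the vitamin D libraries put Xpr1 at 23.5 in colon, 22.1 in villi and 13.9 in crypts, so the order of villi and colon depends on the scale. Enpp1 was lower in colon than in villi (-0.99 ± 0.22, adjusted p = 1.6e-05) and than in crypts (-0.59 ± 0.19, adjusted p = 0.00442), with no call between crypts and villi (adjusted p = 0.304) in the authors' deposited tables. Alpi was lower in crypts than in villi and lower again in colon, with crypts against villi at -1.47 ± 0.20 and colon against crypts at -4.79 ± 0.30 (authors' deposited tables). Akp3 had -1.15 ± 0.32 and -8.03 ± 0.65 for the same pairs in the authors' deposited tables (largest adjusted p of the 4 values 6.4e-04). Slc20a2 differed little on the authors' scale, with crypts above villi by 0.29 ± 0.12 (authors' deposited table, adjusted p = 0.0256) and no call for the other pairs. Its mean FPKM was 11.2 in vitamin D crypts and 6.51 in vitamin D villi.

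The response to vitamin D was compared between tissues in 1 limma fit over all libraries. That fit took the libraries as independent, with no block for mice that the tissues may share, so its standard errors and p-values are uncertain. None of the 7 members tested differed at an adjusted p of 0.05 or at an unadjusted p of 0.05 in any of the 3 pairs of tissues, where 0.0667%, 0.467% and 0.158% of genes were called (villi against crypts, villi against colon, and crypts against colon). For Slc34a2 the response in villi less that in colon was 1.08 ± 0.79, and villi less crypts was 0.90 ± 0.81 (adjusted p = 0.718 and 0.818). The order of villi and crypts depends on the scale, since all crypt controls lie below the 0.5 FPKM added to each value. In the authors' deposited tables the log2 fold change of Slc34a2 was larger in crypts, at 3.31 ± 0.50, than in villi, at 2.24 ± 0.78. The smallest unadjusted p was that of Xpr1, whose response in villi less that in crypts was 0.42 ± 0.22 (unadjusted p = 0.0687, adjusted p = 0.792). The standard errors of Slc34a2, 0.79 and 0.81, are large, and the smallest difference between tissues that this fit could have called was not worked out.

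Beyond the members, 6 lists of the wider phosphate pathway held 78 genes, of which 76 were found. In villi 1 of 55 tested rose and none fell, in crypts 2 of 59 rose and 1 fell, and in colon 1 of 62 rose and none fell (limma). The medians of the log2 fold changes were -0.02, -0.10 and -0.09, against -0.01, -0.01 and 0.00 over all genes tested. With the replicate block 4 genes of the lists were called in villi and 6 in crypts, while calls over all genes went up as well, to 341 with the block against 240 without it in villi, and to 444 against 157 in crypts. Without vehicle replicate 4 of crypts 13 were called, beside 1059 over all genes.

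The called genes were few. Slc37a2, a sugar phosphate exchanger of the endoplasmic reticulum, rose in villi to 97.3 ± 17.1 FPKM, against 15.0 ± 6.87 FPKM with vehicle (2.75 ± 0.23, adjusted p = 2.9e-05). It also rose in crypts, to 72.8 ± 16.2 FPKM, against 8.29 ± 4.55 FPKM with vehicle (3.23 ± 0.35, adjusted p = 2.5e-04). In colon its level was 65.8 ± 53.7 FPKM with vitamin D and 62.3 ± 43.0 FPKM with vehicle (-0.02 ± 0.62). Fgfr4, a receptor for endocrine fibroblast growth factors, fell in crypts to 1.53 ± 0.229 FPKM, against 2.82 ± 0.440 FPKM with vehicle (-0.71 ± 0.12, adjusted p = 0.00842).

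Alppl2 rose in crypts to 3.79 ± 1.06 FPKM, against 1.75 ± 0.501 FPKM with vehicle (0.93 ± 0.19, adjusted p = 0.0257). Of its 31-base windows 1.36% occur in Alpi, which had 511 to 2483 FPKM in the crypt libraries, and the share of its reads that came from Alpi was not tested. In villi Alppl2 stood at 0.533 to 1.20 FPKM with vitamin D and at 0.265 to 1.04 FPKM with vehicle. Pigw, which acylates the anchor that ties alkaline phosphatases to the membrane, rose in colon to 8.84 ± 1.31 FPKM, against 4.93 ± 0.719 FPKM with vehicle (0.78 ± 0.12, adjusted p = 0.00373).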

How the data were processed

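RNA-seq was made from villi, crypts and colon in 38 libraries, grouped by their titles. The authors deposited, per the file headers, a table of FPKM per tissue with 21441 genes, and tables of comparisons that hold the baseMean (a normalised signal), the log2 fold change with its standard error (treated as a score), the p-value and its adjusted form. Tools named in the submitters' processing notes are kallisto 0.45.0, DESeq2 and DESeq 1.28.1, and the build is mm9. The members and lists were chosen with earlier results of these data known.

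Genes reaching 1 FPKM in 6 or more libraries of a tissue entered limma 3.58.1 (R 4.3.3, eBayes with trend) as log2(FPKM + 0.5), with Benjamini-Hochberg adjustment over all genes tested. Numbers of reads were recovered from the steps between low values (78.0% to 91.6% within 0.05 of a whole number). They gave the depth, the reads quoted for single genes and the comparison of replicate libraries, and entered no limma fit. Replicate libraries all differed beyond sampling noise (chi-square of 12.7 or more for each degree of freedom). Named genes were the 10 members, called genes of the 6 phosphate lists (up to 3 per list and tissue, by smallest p), vitamin D check genes, and the 3 genes most like a member at an unadjusted p under 0.05 with a mean of 2 FPKM or more in villi or colon. Replicate numbers of the titles were taken to pair samples where every same-numbered pair of deviations from the group means correlated above 0.1, which held in villi (lowest 0.102) and crypts (0.119) but not in colon (0.0569). The rule did not ask that the same-numbered library correlate best. It did not for vehicle replicates 1, 3 and 5 of villi and 1, 2 and 5 of crypts. Other alternatives were the pseudocount, the filter, the scaling, covariates and left-out libraries.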

Additional observations from a re-analysis of the deposited data

Results flagged for a closer look

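Of 42 groups of values of the members, 3 held a library whose gap to its nearest neighbour exceeded Dixon's 95% limit for the group, where chance flags about 1 in 20. All 3 are vehicle colon libraries with small-intestinal transcripts. Akp3 stood at 315.1 FPKM in replicate 5, where the other controls reached at most 33.0 FPKM. Alpi stood at 338.5 FPKM in the same library, against at most 116.5 FPKM in the others. Xpr1 stood at 37.9 FPKM in replicate 6, against at most 26.8 FPKM in the others.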

How the results depend on the processing

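In villi, where the reported fit calls 0 members and 1 gene of the phosphate lists, a replicate block called 2 (Slc34a2 and Alpi) and 4. A block by the numbers of the column names called 3 (Slc34a2, Slc20a1 and Enpp1) and 3. The name style as a covariate called 2 and 2, the sex pattern 1 and 2, and plainly named libraries alone 1 member. Leaving out 1 library at a time gave 0 to 1 members and 1 to 2 list genes. In crypts the fit without the filter called 1 member, the replicate block 6 list genes, the sex pattern 5, and leaving out 1 library 0 to 1 members and 2 to 13 list genes, the highest without vehicle replicate 4. In colon, where the numbers were not taken to pair the samples, the replicate block called 2 list genes. Slc34a2 was the 1 member called there by the column-number block, the name style, the sex pattern and the plainly named libraries, which called 0 list genes. Leaving out 1 colon library gave 0 members and 1 list gene each time, as did leaving out vehicle replicates 5 and 6 together, with or without vitamin D replicates 6 and 7, choices made after the data were seen. Pseudocounts of 0.1 and 1, median of ratios scaling and eBayes without trend left each of these counts as reported. Of 468 values of single members under these alternatives, 11 changed sign, in Akp3 and Alpi of colon and Slc20a2 of villi, none of them called. Calls of differences between tissues remained 0 under both other pseudocounts and without the filter. At 13.8 to 17.5 M reads per library, Slc34a1, Slc34a3 and Alpl rest on few reads.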
